A study of Mus musculus with 14 samples.

Results

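Prdm1, Il10, Irf4, Batf, Klrg1 and Tgfb1 are 6 genes of the effector programme of regulatory T cells, and their chromatin is described here from CUT&Tag peak lists. The genes were set by name, with earlier results of these data known, and each was given 1 fixed window of the mouse genome build mm39. Every peak of 10 lists that touched a window was taken, which gave 295 of the 309136 peaks of the lists. The windows can also hold parts of neighbouring genes, and the start sites of the genes in mm39 were not used here.

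The knockout libraries came from chimeras with the genotype Foxp3YFP-Slc31a1△;wt, in which Slc31a1, the gene of the copper importer CTR1, was deleted with a Cre recombinase driven by Foxp3. The control libraries came from Foxp3YFPcre;wt chimeras, so both groups carried the Foxp3-YFP reporter. Regulatory T cells were sorted by FACS and 140000 cells entered each sample, where an antibody to the mark guided the cutting and tagging of the chromatin beneath it. H3K27ac was profiled in 3 knockout and 3 control samples, H3K27me3 in 2 knockout and 2 control samples, and 4 IgG samples were not analysed here. Libraries are numbered within each mark and genotype, so that the same number in both marks is not the same chimera. No label gives the sex or age of the mice or says what the wt in the genotype names stands for. The chimeras are numbered, but no label states that each sample was a different animal, and p-values here describe only how these samples vary. The sorted identity was not checked against markers such as Foxp3, since positions of other genes in mm39 were not used here.

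BATF and IRF4 are transcription factors that bind DNA together and are needed for resting regulatory T cells to become effector cells. Blimp-1, the product of Prdm1, is a zinc-finger transcriptional repressor found in effector cells, KLRG1 is a cadherin receptor on terminally differentiated cells, and IL-10 and TGF-β1 are suppressive cytokines. H3K27ac marks active promoters and enhancers, while H3K27me3 is set by Polycomb complexes on silent genes, and a single lysine cannot carry both.

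RefSeq promoter sequences of GRCm38.p6, an earlier build, were at hand for 4 of the 6 genes, each from 250 bases before to 50 bases after the start. They are shown because BATF, IRF4, Blimp-1, Foxp3 and metal-responsive factors are textbook regulators whose motifs can be looked for at these genes. Capitals mark the matches, on either strand, to TGANTCA (AP-1 and BATF), TGTGGT (RUNX), TGTTTAC (forkhead) and TGCNCNC (metal response), to a loose NF-kB motif, to an IRF motif and to a Blimp-1-like motif, each match of which is also an IRF match. Each sequence is written 5′ to 3′ on the strand of its gene, which is the minus strand for Prdm1 and the plus strand for Irf4, Batf and Tgfb1. In GRCm38.p6 they span chr12:85686470-85686769 (Batf), chr13:30748983-30749282 (Irf4), chr10:44458699-44458998 (Prdm1) and chr7:25686752-25687051 (Tgfb1), positions that cannot be set against the mm39 coordinates of the peaks.
Batf: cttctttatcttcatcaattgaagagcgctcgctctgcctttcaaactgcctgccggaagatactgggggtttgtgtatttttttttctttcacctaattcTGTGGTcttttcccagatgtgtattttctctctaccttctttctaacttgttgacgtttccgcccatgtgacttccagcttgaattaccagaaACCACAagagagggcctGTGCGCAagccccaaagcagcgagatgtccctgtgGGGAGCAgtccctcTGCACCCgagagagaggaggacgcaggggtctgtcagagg
Irf4: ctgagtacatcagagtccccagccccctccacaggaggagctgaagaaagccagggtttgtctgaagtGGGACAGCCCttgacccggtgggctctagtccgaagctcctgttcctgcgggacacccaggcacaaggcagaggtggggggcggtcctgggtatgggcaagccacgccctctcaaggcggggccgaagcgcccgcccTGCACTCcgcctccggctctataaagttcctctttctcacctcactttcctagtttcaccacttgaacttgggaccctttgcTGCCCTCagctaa
Prdm1: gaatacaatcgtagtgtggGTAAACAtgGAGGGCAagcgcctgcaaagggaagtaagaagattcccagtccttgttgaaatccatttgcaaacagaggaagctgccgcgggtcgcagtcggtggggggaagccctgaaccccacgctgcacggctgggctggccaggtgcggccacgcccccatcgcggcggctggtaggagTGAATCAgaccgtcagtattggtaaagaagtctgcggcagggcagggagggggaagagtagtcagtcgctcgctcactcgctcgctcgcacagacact
Tgfb1: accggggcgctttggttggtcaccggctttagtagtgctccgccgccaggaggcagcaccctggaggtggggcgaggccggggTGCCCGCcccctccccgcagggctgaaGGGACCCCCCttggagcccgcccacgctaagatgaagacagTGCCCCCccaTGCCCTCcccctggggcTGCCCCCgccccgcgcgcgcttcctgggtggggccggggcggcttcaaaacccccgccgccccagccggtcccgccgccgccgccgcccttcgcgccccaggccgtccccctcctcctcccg
The Prdm1 promoter held 1 AP-1 and 1 forkhead match, motifs that 7.81% and 3.65% of 32851 promoters hold. The Batf promoter held 2 RUNX matches (16.8% of promoters hold any), and the Irf4 and Tgfb1 promoters held 1 NF-kB match each (20.7%). The metal-response letters were found in all 4 promoters, as in 51.0% of all promoters. Neither the IRF motif, which 3.44% of promoters hold, nor the rarer Blimp-1-like form was found in these promoters, which says nothing about the factors. The Tgfb1 promoter had 30 CpG dinucleotides and 77% GC, Prdm1 had 20 and 59.7%, Irf4 had 11 and 61%, and Batf had 9 and 49.7%, where the medians over all promoters were 7 and 52.7%. A match is a description of letters, not a bound site.

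H3K27ac peaks covered less of the Batf, Irf4 and Klrg1 windows in every knockout than in any control, and no window showed the opposite. That is 3 of 6 windows, where every knockout was lower than every control in 13.5% of 9952 tiles of 50 kb across the genome and higher in 8.44%. The tiles are a rough yardstick, since the windows are between 40 and 140 kb long and the genes were chosen with earlier results known. Over all 6 windows, knockouts 1 to 3 had 24, 21 and 20 peaks with 36193, 40956 and 27096 bases, against 39, 29 and 35 peaks with 52867, 42838 and 46298 bases in controls 1 to 3. Both the peak numbers and the covered bases of the windows were lower in every knockout than in any control. The whole lists covered 42.1, 47.2 and 37.7 Mb in the knockouts and 43.3, 42.3 and 43.0 Mb in the controls, which overlapped, with 28289, 24154 and 21326 peaks in the knockouts and 32012, 27986 and 29748 in the controls.

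Peak lists depend on the background each library was compared with, and that background was not the same in all lists. A peak's fold and p fix its summit, which came out in whole fragments, and its local background. At 12531 shared acetylated regions that background agreed within 1.1-fold at 39.5 to 51.5% of regions between knockout lists. The share was 14.8 to 18.2% between a knockout and a control list, 52.1% between controls 2 and 3, and 10.9 to 12.7% between control 1 and the other controls. The genome-wide background was 2.55, 3.05 and 2.40 fragments in the knockouts and 2.88, 2.09 and 2.11 in the controls. The sources used here do not say whether it was an IgG library, of which there were 3 from controls and 1 from a knockout. These shares were higher among the knockout lists than between any knockout and any control list, and control 1 stood apart from the lists of both genotypes. What the background contributed to a difference and what the genotype did cannot be told apart in the comparisons below.

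**Figure D1:**
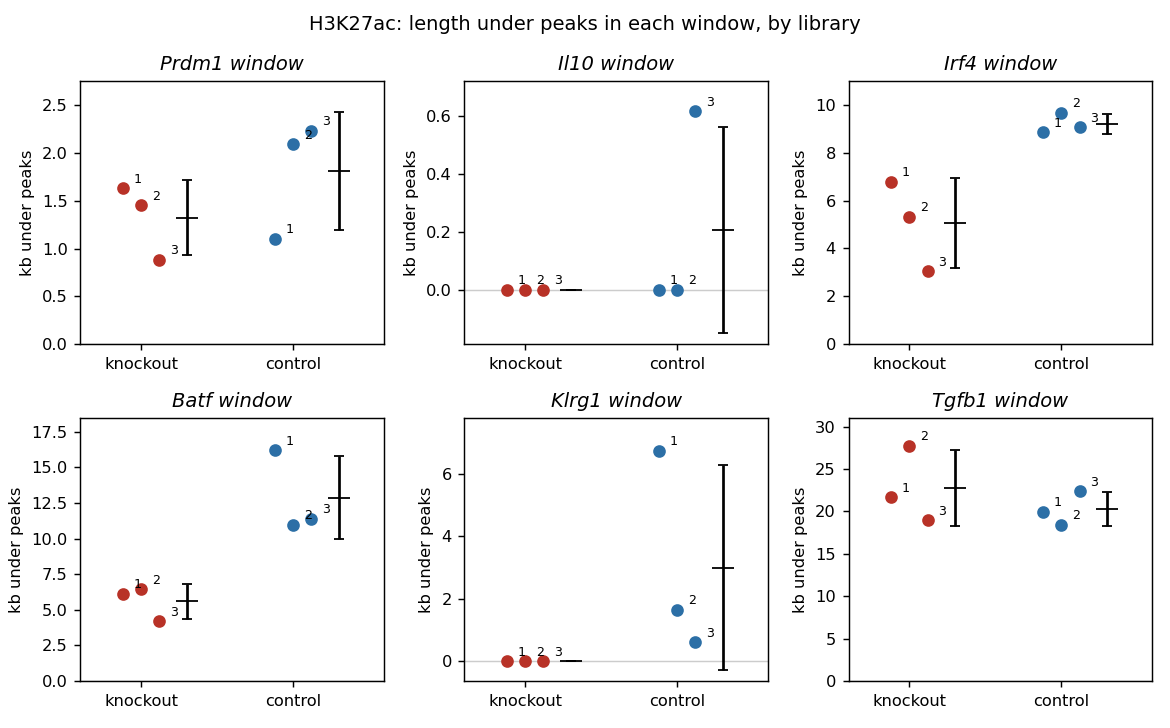
H3K27ac length under peaks in kb (vertical axis, scaled per panel) in the windows of the 6 genes, 1 point per library, numbered, with knockouts left of controls and the mean ± SD as a bar (n = 3 each). The knockout points lie below all control points for Batf, Irf4 and Klrg1, and overlap them for Prdm1, Il10 and Tgfb1.

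Batf, on chromosome 12 between 85715001 and 85775000, had the largest difference of the 6 windows in covered bases. Its H3K27ac peaks covered 6117, 6424 and 4201 bases in knockouts 1 to 3, against 16207, 10986 and 11383 bases in controls 1 to 3. The knockouts had 2, 3 and 3 peaks, and the controls had 8, 6 and 8. The highest knockout stood far below the lowest control in both counts. The mean was 5581 ± 1205 bases for the knockouts and 12859 ± 2907 for the controls (SD, n = 3 each), a difference of -7278 bases (two-sided exact permutation p = 0.1, the smallest that 3 against 3 libraries allow).

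In a test of 10 kb bins over the whole genome, 2 of the 3 bins tested in the Batf window were called lower in the knockouts. In the bin from 85730001 to 85740000, knockouts had 2564, 3083 and 2433 covered bases and controls had 5536, 4648 and 4930, a change of -0.91 on the log2(bases + 100) scale (SE 0.113, limma adjusted p = 0.0252). In the next bin, from 85740001 to 85750000, knockouts had 665, 453 and 0 bases and controls had 7204, 3481 and 3619, a change of -3.75 (SE 0.706, limma adjusted p = 0.0467). The third bin, from 85750001 to 85760000, had 2888, 2888 and 1768 bases in knockouts and 3467, 2857 and 2834 in controls (limma adjusted p = 0.396), with overlapping values. Across the genome, 2.25% of 19295 bins were called lower and 0.58% higher, but the 6 genes were chosen with earlier results known. The 3 called bins of the 6 windows were these 2 and 1 at Klrg1, of 15 bins tested, and none was called higher. The Klrg1 bin, and 1 at Prdm1 that was not called, had covered bases in controls only and entered the test through them. An unadjusted p under 0.05 was reached by 7 of the 15, and by 16.8% of all bins. Every knockout was below every control in 6 of the 15 bins, where 12.4% of all bins were so, and above in 0, where 9.64% were. The median change was -0.15 over the 15 bins and -0.05 over all bins.

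The calls at Batf depended on the choice of libraries more than the size of the change did. Without knockout 2, knockout 3, control 1, control 2 or control 3, refitted on the same bins, the limma adjusted p was 0.0987, 0.0560, 0.0974, 0.130 and 0.117 for the first bin and 0.155, 0.0590, 0.132, 0.139 and 0.126 for the second. The log2 changes stayed between -0.96 and -0.84 and between -4.30 and -2.93. The size of the second change depends on the pseudocount: it was -4.97 with 10 bases and -2.06 with 1000. Over all alternatives run on these bins, the limma adjusted p ranged between 0.0114 and 0.130 for the first bin and between 0.00915 and 0.188 for the second.

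The Batf difference lay between a pair of acetylated regions that all 6 libraries shared, a pattern singled out after the values were seen and given with no test. The first region spanned 85732488 to 85736814, and its outer edge varied by 139 bp over the 6 libraries. Its inner end lay at 85735051, 85735334 and 85735059 in knockouts 1 to 3, against 85736814, 85736652 and 85736527 in controls 1 to 3. The peak thus reached 1516 bp further inward in the controls on average, with 1193 bp between the nearest libraries of the groups. The second region spanned 85748935 to 85752955 and had its inner start at 85749336, 85749548 and 85750416 in knockouts, against 85748935, 85749127 and 85749169 in controls. Its inner edge differed by 690 bp on average, with 167 bp between the nearest libraries, and its outer edge varied by 350 bp over all 6.

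Between these regions no knockout had a peak, while controls 1 to 3 had 5, 4 and 5 peaks with 7368, 3098 and 3489 bases. Of these, 4 regions were found in every control and no knockout, at 85737509 to 85738867, 85741186 to 85744146, 85744450 to 85746026 and 85746775 to 85748174. By the strongest peak of each library, they ranged from weak to above the middle of their lists, at percentiles of −log10 p between 6.41 and 77.4, where the flanking shared regions stood between 87.1 and 97.4 in all 6 lists. The summit of the first shared region did not separate the groups: it held 171, 173 and 116 fragments in knockouts and 255, 135 and 143 in controls. Over the genome's background, that summit stood at 67.0, 56.8 and 48.3 in knockouts and 88.6, 64.7 and 67.8 in controls, which overlapped too. The local background of the region over the genome's was 6.47, 6.22 and 6.22 in knockouts and 9.90, 6.27 and 6.27 in controls, so that control 1 stood apart from the other 5 libraries. With each list cut to its strongest 21326 peaks, the Batf window still had 6117, 6129 and 4201 bases in knockouts and 15695, 9184 and 10606 in controls, without overlap.

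**Figure D2:**
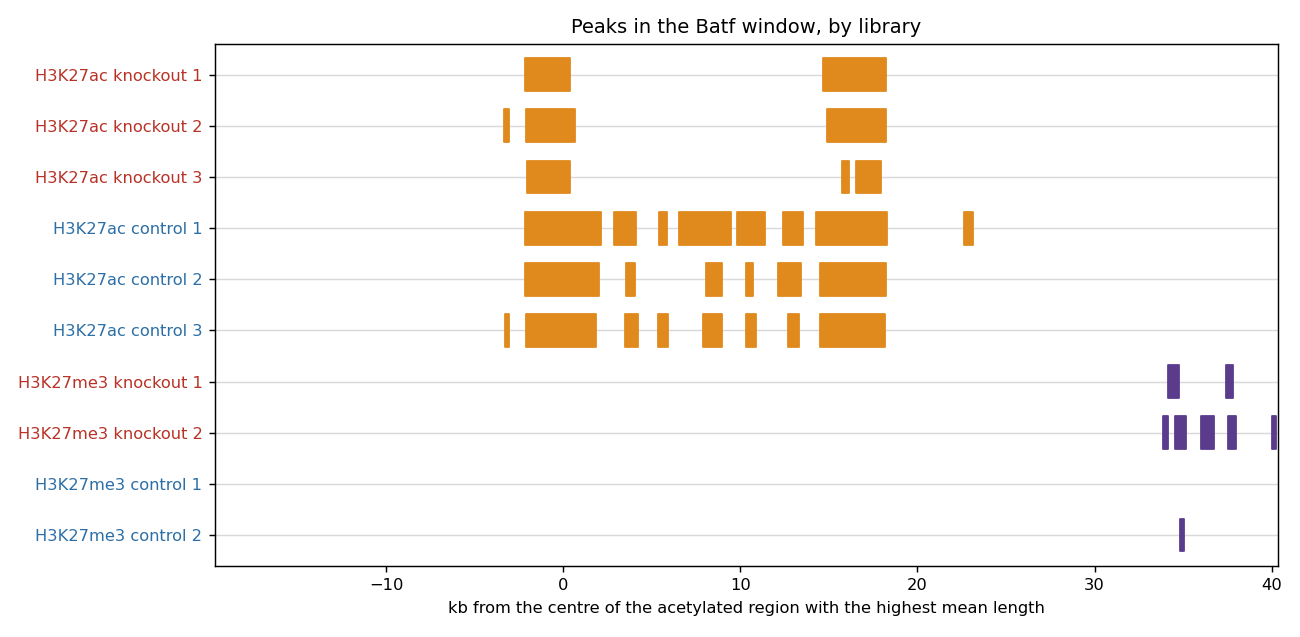
Peaks in the Batf window by library (rows, knockouts above controls for each mark), with bars for peaks, H3K27ac in orange and H3K27me3 in violet, against the distance in kb from the centre of the acetylated region with the highest mean length. Both ends of the acetylated stretch have peaks in all 6 H3K27ac libraries, and the space between them holds peaks in the 3 controls and in none of the 3 knockouts.

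Irf4, the partner of BATF, on chromosome 13 between 30915001 and 30970000, was the next of the transcription factors. Its H3K27ac peaks covered 6795, 5332 and 3045 bases in knockouts 1 to 3, against 8865, 9663 and 9070 in controls 1 to 3. The knockouts spread widely and the controls lay close together, without overlap. The mean was 5057 ± 1890 bases for knockouts and 9199 ± 414 for controls (SD, n = 3 each), a difference of -4142 bases (two-sided exact permutation p = 0.1, the smallest possible). The number of peaks did not separate the groups, at 8, 5 and 3 in knockouts and 7, 5 and 6 in controls.

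Among Irf4 regions, some of them chosen after their values were seen, the strongest, at 30949792 to 30952129, did not separate the groups. It covered 2214, 2047 and 1986 bases in knockouts and 2320, 2059 and 1735 in controls, and stood between percentiles 73.6 and 83.9 of every list. The region with the highest mean length, at 30942909 to 30945886, covered 2014, 2047 and 1059 bases in knockouts and 2326, 2943 and 2669 in controls, and was shorter in every knockout. The difference was widest at 30932417 to 30936038, with 1702, 898 and 0 bases in knockouts and 2968, 2767 and 3451 in controls. Next to it, the region at 30936720 to 30938173 was found in the 3 controls, with 622, 1454 and 572 bases, and in no knockout. The Irf4 bin with the smallest p, from 30930001 to 30940000, joined these last regions. Its difference of -2.86 (SE 0.930) did not pass the test (limma adjusted p = 0.176, and between 0.0310 and 0.730 over the alternatives run). It was called with a pseudocount of 1000 bases, at -1.54 (limma adjusted p = 0.0310), and was -1.70 without knockout 3 and -1.34 with lists of equal length.

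Several Irf4 peaks stood on a high local background. At 30932417 to 30936038, knockouts 1 and 2 each had 2 peaks, on backgrounds of 14.6 and 2.36 times the genome's in knockout 1 and of 12.7 and 2.62 times in knockout 2. Controls 1 to 3 had 1 wide peak each there, on 19.3, 9.30 and 8.47 times the genome's background. All these peaks were weak to middling, at percentiles between 0.658 and 31.4 of their lists. With lists of equal length the window held 5467, 4094 and 3045 bases in knockouts and 4986, 8209 and 4976 in controls. Knockout 1 then exceeded controls 1 and 3, the groups overlapped, and the difference was -1855 bases (two-sided exact permutation p = 0.3).

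Prdm1, on chromosome 10 between 44290001 and 44430000, held little H3K27ac for its 140 kb. The peaks covered 1633, 1457 and 884 bases in knockouts 1 to 3, against 1106, 2093 and 2237 in controls 1 to 3. Control 1 lay between knockouts 2 and 3, so that the groups overlapped. The mean was 1325 ± 392 bases for knockouts and 1812 ± 616 for controls (SD, n = 3 each, difference -487, two-sided exact permutation p = 0.3). Without 1 library the difference ran from -840 bases, without control 1, to -267, without knockout 3. All acetylated peaks of the window lay between 44319408 and 44326223.

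The main Prdm1 region, at 44323105 to 44324705, was present in all 6 libraries. It covered 1267, 1457 and 884 bases in knockouts and 819, 1423 and 1276 in controls, with summits of 109, 117 and 70 fragments in knockouts and 110, 58 and 86 in controls. Over the genome's background, the summits stood at 42.7, 38.4 and 29.1 in knockouts and 38.2, 27.8 and 40.8 in controls. None of these measures separated the groups. A small region at 44319408 to 44320055 was found in the 3 controls, with 287, 380 and 347 bases, and in no knockout. It was among the weakest peaks of the control lists, at percentiles between 1.84 and 7.78. Its bin, from 44310001 to 44320000, entered the test through the controls alone. It had a difference of -2.07 (SE 0.504, limma adjusted p = 0.0805) and was not called. With no base in any knockout, that size depends on the pseudocount and scaling: it was -5.03 with 10 bases, -0.41 with 1000 and -0.96 with quantile normalization.

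Klrg1, which encodes the inhibitory cadherin receptor of the cell surface, lay on chromosome 6 between 122230001 and 122280000 and had no H3K27ac peak in any knockout. Knockouts 1 to 3 had 0, 0 and 0 bases, against 6726, 1652 and 610 bases in controls 1 to 3. The controls had 10, 4 and 2 peaks and differed widely among themselves. The mean was 0 for knockouts and 2996 ± 3272 for controls (SD, n = 3 each), a difference of -2996 bases (two-sided exact permutation p = 0.1, the smallest possible). Without control 1 the difference was -1131 bases, and in the window narrowed by 10 kb on both sides it was -932 (exact permutation p = 0.4). A window without a peak may still carry the mark below the calling threshold. A peak in every library was found in 73.8% of the 50 kb tiles that had a covered base in at least 3 H3K27ac libraries. Tiles covered in fewer libraries were left out of that share.

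The bin of Klrg1 from 122270001 to 122280000 was called lower in the knockouts, though it entered the test through the controls alone. It held 0, 0 and 0 bases in knockouts and 3737, 1389 and 610 in controls, a log2 change of -4.02 whose size depends on the pseudocount (SE 0.741, limma adjusted p = 0.0452). The call was lost without knockout 2 or 3 (limma adjusted p = 0.157 and 0.114), without control 1, 2 or 3 (0.115, 0.148 and 0.117), with a pseudocount of 10 or 1000 bases (0.0581 and 0.0768), with no filter (0.0587), with quantile normalization (0.0644) and with no centring (0.0504). It was kept only without knockout 1, at 0.0482, among the alternatives in which this bin was tested.

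The Klrg1 peaks of the controls were weak. At the region with the highest mean length, 122270653 to 122272580, controls 1 to 3 had 1724, 977 and 286 bases, with strongest peaks at percentiles of 24.1, 7.59 and 6.13 within their lists. At the other region found in every control, 122274225 to 122275112, they had 803, 412 and 324 bases, at percentiles of 44.5, 11.1 and 7.16. No Klrg1 peak of controls 2 and 3 ranked above percentiles 11.1 and 7.16. With lists of equal length, control 1 kept 3162 bases in the window, while controls 2 and 3 had 0, as did the 3 knockouts (difference -1054, exact permutation p = 1).

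**Figure D3:**
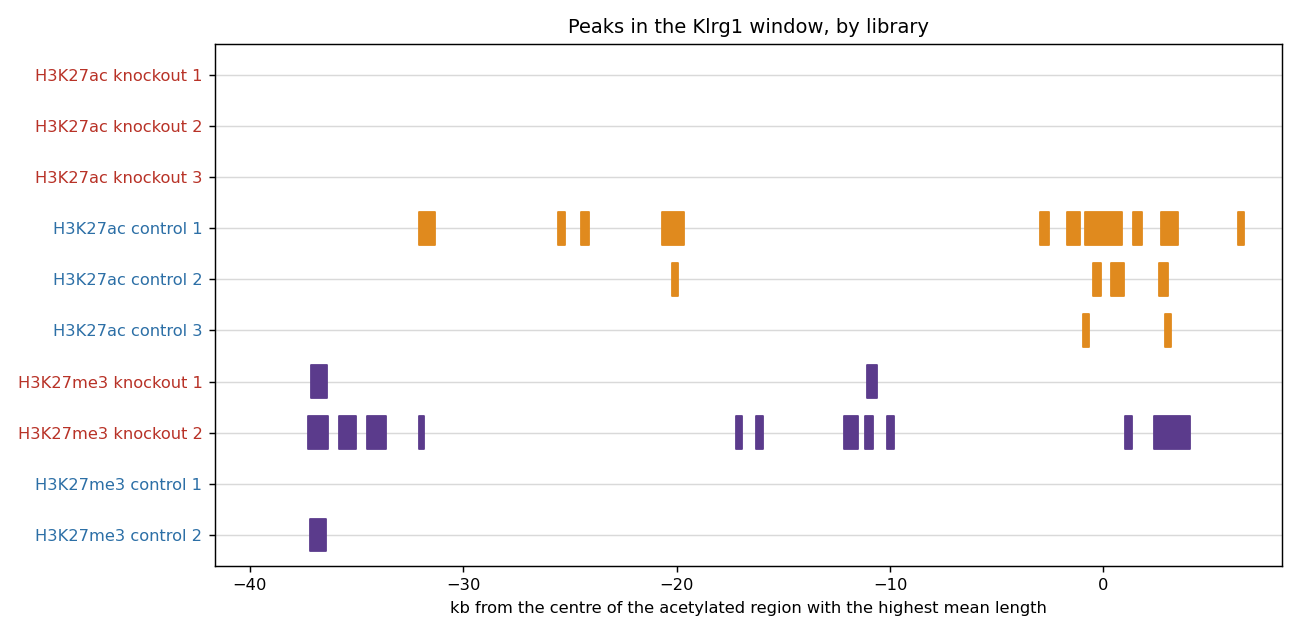
Peaks in the Klrg1 window by library (rows, knockouts above controls for each mark), with bars for peaks, H3K27ac in orange and H3K27me3 in violet, against the distance in kb from the centre of the acetylated region with the highest mean length. The 3 knockout rows of H3K27ac are empty, control 1 has 10 peaks, and knockout 2 of H3K27me3 has a peak over a region acetylated in the controls.

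Il10, the suppressive cytokine gene on chromosome 1 between 130930001 and 130970000, was almost free of H3K27ac peaks in both genotypes. Knockouts 1 to 3 had 0, 0 and 0 bases and controls 1 to 3 had 0, 0 and 616 (difference -205, two-sided exact permutation p = 1). The single peak, in control 3 at 130930608 to 130931223, lay at the edge of the window and stood at percentile 37.8 of its list. No Il10 bin was covered in enough H3K27ac libraries to be tested.

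Tgfb1, on chromosome 7 between 25370001 and 25420000, was the most acetylated of the 6 windows. It was the only window with a higher mean in the knockouts, but like Prdm1 and Il10 it did not separate the groups. Its peaks covered 21648, 27743 and 18966 bases in knockouts 1 to 3, against 19963, 18444 and 22382 in controls 1 to 3. The groups overlapped, with knockout 2 the highest library and control 2 the lowest. The mean was 22786 ± 4498 bases for knockouts and 20263 ± 1986 for controls (SD, n = 3 each, difference 2523, two-sided exact permutation p = 0.6), and without knockout 2 the difference was 44 bases. Tgfb1 accounted for 5 of the 10 acetylated regions that all 6 libraries shared. The one with the highest mean length, at 25409185 to 25419848, covered 6875, 8807 and 5021 bases in knockouts and 7604, 6596 and 7890 in controls.

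The Tgfb1 bin with the smallest p, from 25390001 to 25400000, held 2711, 4876 and 3206 bases in knockouts and 1463, 944 and 2742 in controls. Knockout 1 was just below control 3, and the change of 1.08 did not pass the test (SE 0.372, limma adjusted p = 0.2005). With lists of equal length it was called, at 1.80 (limma adjusted p = 0.0359). That bin holds the region at 25396348 to 25398701, picked out after its values were seen, with 597, 2354 and 961 bases in knockouts, against 0, 0 and 365 in controls.

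Counted by region, the windows held acetylated regions that all controls had and all knockouts lacked, and none of the opposite kind. Merging the 6 lists gave 39 regions in the windows, 10 of them (25.6%) with a peak in all 6 libraries, where 34.9% of 37573 regions of the genome had one. A peak in every knockout and no control was found at 0, where 0.809% of all regions were so, and a peak in every control and no knockout at 8 (20.5%), where 2.66% were. The 8 comprised 4 at Batf, 2 at Klrg1, 1 at Irf4 and 1 at Prdm1, with none at Il10 or Tgfb1. This difference from the genome was not tested, since neighbouring regions of a window are not independent of each other. The genes were also chosen with earlier results known. By the strongest peak per library, their percentiles ran from 0.511 to 77.4 with a median of 29.8, against 24.9 to 97.4 with a median of 75.9 for the regions in every library. With lists of equal length 2 such regions were left, and with peaks required over most of the length of a region 1 was left.

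H3K27me3 was compared between 2 knockout and 2 control lists, and the list of control 1 was of another kind. The lists of knockouts 1 and 2 and of control 2 started above a −log10 p of 9 and held 36436, 57728 and 43945 peaks, while that of control 1 held 7512 peaks with −log10 p between 2.02 and 7.21, over 4.89 Mb. The smallest exact permutation p for 2 against 2 libraries is 0.33, so no window could pass a threshold. Every knockout was above every control in 3 of the 6 windows, Il10, Batf and Klrg1, where 36.7% of 9981 tiles of 50 kb were so, and in 0 was every knockout below, where 0.12% were. A peak in every library, found in 30.8% of these tiles, was present at Prdm1 and Tgfb1. Tiles were counted only with a covered base in at least 2 H3K27me3 libraries, a filter that the Irf4 window would not pass. Of 16 bins of the windows tested with limma, 0 were called in either direction, with 2 at an unadjusted p under 0.05 (10.5% of all bins), where 0.257% of 21034 bins were called higher and 0.0428% lower. The median log2 change was 1.00 over the 16 bins and 0.78 over all bins, and every knockout was above every control in 6 of the 16, where 39.5% of all bins were so, and below in 0, where 0.181% were. These shares lie close to the background, and they show nothing particular to the 6 genes.

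**Figure D4:**
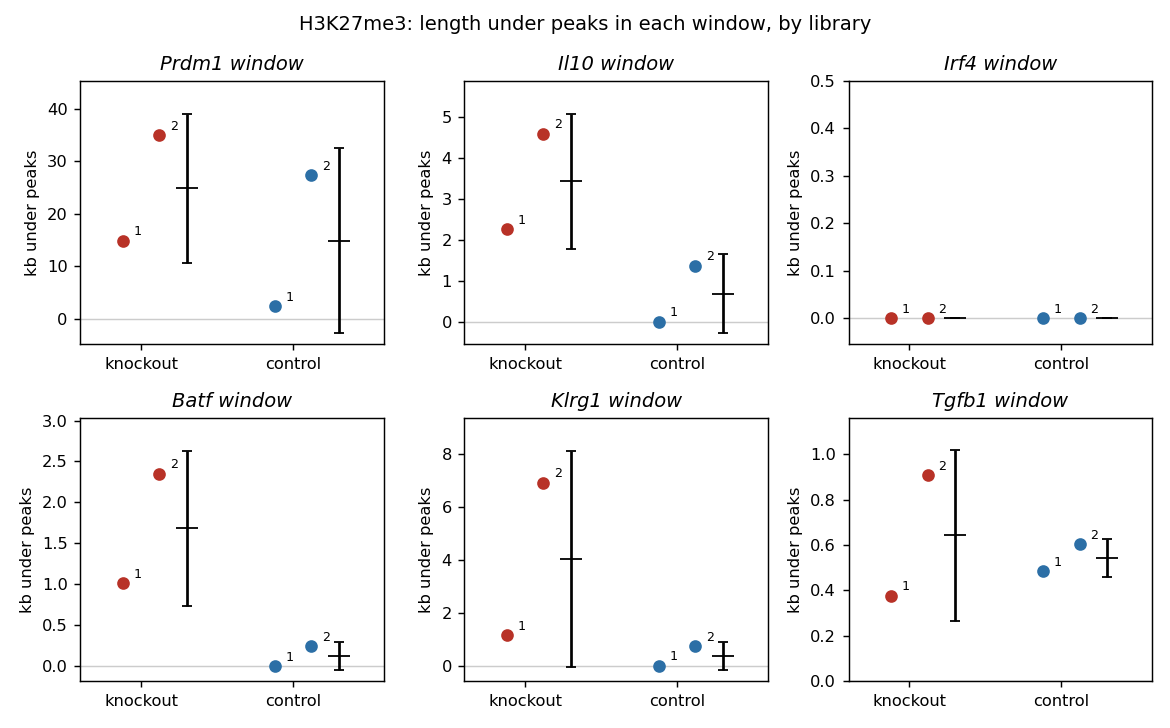
H3K27me3 length under peaks in kb (vertical axis, scaled per panel) in the windows of the 6 genes, 1 point per library, numbered, with knockouts left of controls and the mean ± SD as a bar (n = 2 each). The Prdm1 window holds by far the most, with 14876 and 34954 bases in the knockouts and 2414 and 27398 in the controls, and the Irf4 window holds none.

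Prdm1 carried most of the H3K27me3 of the windows. Knockouts 1 and 2 had 14876 and 34954 bases, against 2414 and 27398 in controls 1 and 2. Knockout 1 lay well below control 2, so that the groups overlapped. The mean was 24915 ± 14197 bases for knockouts and 14906 ± 17666 for controls (SD, n = 2 each, difference 10009, two-sided exact permutation p = 0.667). The direction rested on control 1 and knockout 2: the difference was -2483 bases without control 1 and -30 without knockout 2. Per Mb under peaks of each list, the window had 485 and 557 bases in knockouts and 493 and 677 in controls, a difference of -64.2.

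The mark formed a stretch rather than single peaks at Prdm1. Apart from 1 peak of knockout 2 at 44301098 to 44301752, the 93 other peaks lay between 44332688 and 44425088, over 92.4 kb. The span was 57.9 and 91.4 kb in knockouts 1 and 2 and 53.5 and 84.6 kb in controls 1 and 2, with 18 and 37 peaks in the knockouts and 6 and 32 in the controls. At the end of the stretch with the higher coordinates, the bin from 44410001 to 44420000 had 0 and 2225 bases in knockouts and 388 and 2503 in controls, a change of -2.27 (SE 0.916) that was not called (limma adjusted p = 0.350). Quantile normalization called it (limma adjusted p = 0.00741), but with no centring the change was -1.22 (limma adjusted p = 0.787). Without 1 library it ran from -4.01, without knockout 2, to -0.48, without knockout 1. Knockout 1 had no peak past 44398672, while knockout 2 and both controls did.

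**Figure D5:**
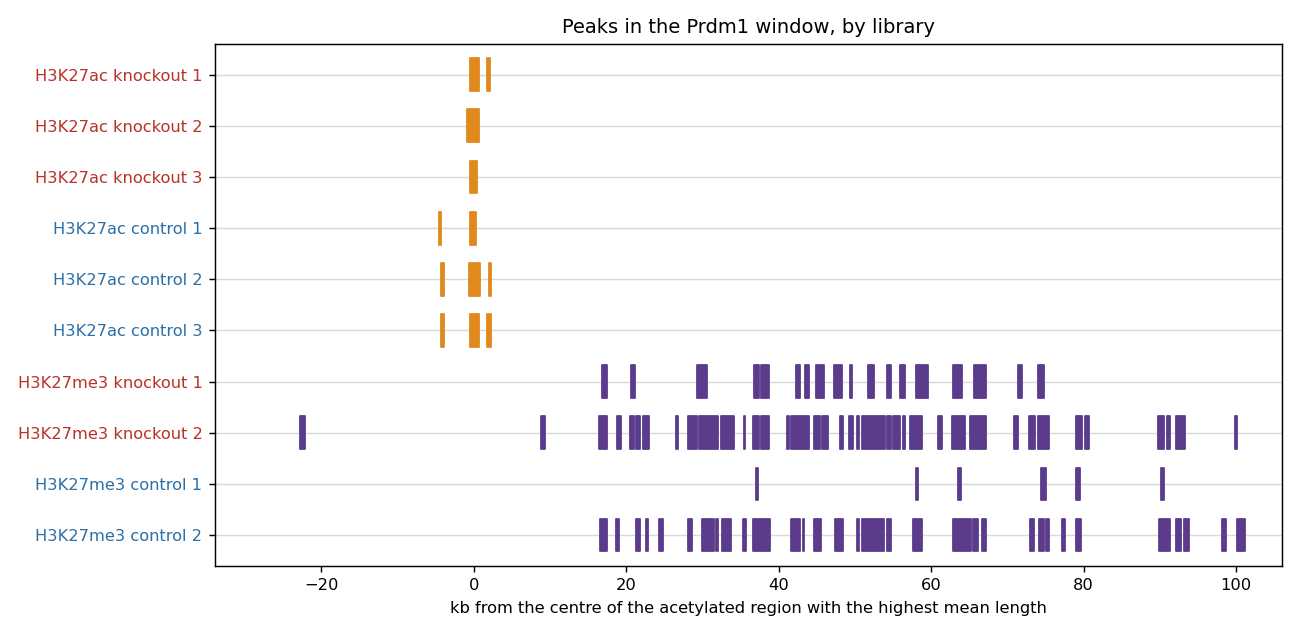
Peaks in the Prdm1 window by library (rows, knockouts above controls for each mark), with bars for peaks, H3K27ac in orange and H3K27me3 in violet, against the distance in kb from the centre of the acetylated region with the highest mean length. H3K27ac lies in 6.82 kb around the centre in all 6 libraries, and nearly all H3K27me3 lies to its right in all 4 libraries of that mark.

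At the other genes the mark was sparse. Il10 had 2260 and 4587 bases in knockouts 1 and 2, against 0 and 1363 in controls 1 and 2 (difference 2742, two-sided exact permutation p = 0.333, the smallest possible), all within 4.83 kb between 130945991 and 130950822. The receptor gene Klrg1 had 1163 and 6903 bases in knockouts, against 0 and 750 in controls (difference 3658, p = 0.333 in the same exact test), and without knockout 2 the difference was 788 bases. Batf had 1014 and 2349 bases in knockouts, against 0 and 239 in controls (difference 1562, p = 0.333 in the same exact test). In each of these windows control 2 held fewer bases than knockout 1. Tgfb1 had 376 and 908 bases in knockouts, against 483 and 603 in controls (difference 99, exact permutation p = 1), and the groups overlapped. The Irf4 window had no H3K27me3 peak in any of the 4 libraries.

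Merged H3K27me3 regions numbered 55 in the windows. Of these, 7 (12.7%) had a peak in both knockouts and no control, where 9.94% of 63341 regions of the genome did, and 0 had a peak in both controls and no knockout, where 0.0426% did. A peak in every library was found at 4 (7.27%), all at Prdm1, where 6.1% of all regions were so. The 7 comprised 4 at Prdm1 and 1 each at Batf, at 85772092 to 85772638, Klrg1, at 122260427 to 122260987, and Tgfb1, at 25372621 to 25373147. All these shares were near those of the genome.

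Over all libraries of both genotypes, peaks of the marks shared no base in 5 of the 6 windows. At Irf4, with 1 mark only, this could not be otherwise, and at Il10 it rests on the single acetylated peak of control 3. How often the marks share bases elsewhere in the genome was not counted. At Prdm1 the nearest acetylated and methylated peaks of any libraries were 6464 bp apart, at Tgfb1 4763 bp, at Batf 10713 bp and at Il10 14767 bp. Klrg1 was the exception, and only between genotypes. No knockout had an H3K27ac peak there, and peaks of the marks in the controls shared no base. Knockout 2 had an H3K27me3 peak of 1695 bp at 122273972 to 122275666, which ranked at percentile 89.7 of its list and shared 803, 412 and 324 bases with 1 H3K27ac peak each of controls 1 to 3. A second, weaker peak of knockout 2, at 122239542 to 122239803 and percentile 11.1, shared 259 bases with an H3K27ac peak of control 1. Knockout 1 had no H3K27me3 peak at either place, and neither control did. The overlap therefore rests on 1 methylation library, and the acetylation and methylation libraries of a genotype are not all from the same chimeras. H3K27me3 knockout 2 carries the same chimera number as H3K27ac knockout 1, which had no peak in the Klrg1 window.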

How the data were processed

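H3K27ac and H3K27me3 were profiled by CUT&Tag in sorted regulatory T cells. Per the submitters' processing notes, reads were handled with Bowtie2 2.2.4, MACS2 (no version), deepTools 3.5.1, HOMER 4.11 and ChIPseeker 1.30.3 on build mm39. The sources used here do not give their settings, the background library or the treatment of duplicates. Each deposited list belongs to 1 library and gives the peaks' start, end and summit. The authors' score was the −log10 p multiplied by 10 and cut to a whole number, in at least 99.6% of the peaks of each list. The authors deposited the fold over local background as a ratio, and p and q as −log10 values. Summits and local backgrounds solved from fold and p were compared between lists. Otherwise these peak values were used only to describe, rank or filter peaks within their own list. Reads were not used here, so values are the presence and length of peaks.

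Coordinates count from 1. The value of a window was the number of bases under peaks inside it, compared between genotypes for each mark alone by an exact permutation test of the means (two-sided). Bases in 10 kb bins of the whole genome were put on the log2(bases + 100) scale, centred by the median over bins that every library covers, and tested with limma 3.58.1 in R 4.3.3 (trended, robust), where at least 3 H3K27ac or 2 H3K27me3 libraries had a covered base. P-values were adjusted by the Benjamini-Hochberg method over all bins, with a threshold of 0.05. Tiles of 50 kb were counted only where they met the same rule on libraries with a covered base. The limma step was tested on simulated data. Regions were peaks of a mark merged over its lists at an overlap of 1 bp. Summits and local backgrounds were solved from fold and p under a Poisson model. Summits came out as whole fragments, within 0.02, for at least 99.99% of peaks read back in each H3K27ac list, and the model was not used for H3K27me3. Promoters were matched by symbol in RefSeq tables of GRCm38.p6, for 4 of 6 genes.

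The 6 genes and the lists were chosen with earlier results of these data known. The named bins were the called ones of each window or else that with the smallest p. The named regions were the acetylated region with the highest mean length, every region found in one genotype only, and the H3K27me3 regions, of which those at Prdm1 are given as a stretch and as counts. Acetylated regions named beyond this rule, at Batf, Irf4 and Tgfb1, were chosen after their values were seen. No annotation of mm39 was used, so start sites, 30 other effector genes, genes of like pattern and cell type markers, planned in case of one, were not analysed here. Deviations of same-numbered libraries from their genotype's mean had correlations over bins of 0.246, 0.053 and 0.0102 for H3K27ac and 0.00261 for H3K27me3. Libraries of different numbers were not compared in this way, so these values cannot decide whether the numbers paired samples. Within a mark, same-numbered libraries carry the same chimera number, but no label calls them pairs. The main tests used no pairing.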

Additional observations from a re-analysis of the deposited data

How the results depend on the processing

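Why results changed between settings was not tested, though shorter lists, narrower windows and fewer libraries leave less to test. Leaving out 1 library makes it easier for a region to count as specific to a genotype, and a lone library left in a group was assumed to vary like the others. Of the 15 H3K27ac bins of the windows, 0 were called lower with a pseudocount of 10 bases, 1 with no centring, 1 of the 12 tested with lists of equal length, 1 of the 10 tested in 50 kb bins and 0 to 3 without 1 library, where the chosen settings gave 3. Lists of equal length also gave 1 called higher, at Tgfb1. The 16 H3K27me3 bins had 2 called lower with quantile normalization. Without 1 library, 0 to 1 were called lower and 0 to 4 higher. The H3K27me3 bin at Tgfb1 turned from -0.93 to 0.11 without centring.

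Window differences in H3K27ac covered bases at Batf, Irf4 and Klrg1 kept their sign under every alternative run, but with lists of equal length the groups overlapped at Irf4 (-1855, exact permutation p = 0.3) and Klrg1 (-1054, p = 1), and at Klrg1 also in the narrowed window (-932, p = 0.4). At Prdm1 the difference turned to 30 bases with lists of equal length, and at Tgfb1 it turned to -0.333 peaks when peaks were counted. At Il10 it was 0 in the window narrowed by 10 kb on both sides and -308 to 0 without 1 library. For H3K27me3, the Prdm1 difference turned to -64.2 bases per Mb under peaks, and lay between -2483 and 22501 without 1 library. At Batf it was 0 with lists of equal length and 0 in the narrowed window. At Tgfb1 it was -241.5 with lists of equal length, -43.4 per Mb under peaks, 0 in the narrowed window and between -167 and 365 without 1 library.

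Acetylated regions found in knockouts only numbered 1 with lists of equal length and 0 to 1 without 1 library, where the chosen settings gave 0. Those in controls only numbered 2 with lists of equal length, 1 where peaks had to cover at least 50% of the region and 7 to 9 without 1 library, where the chosen settings gave 8. H3K27me3 regions in knockouts only numbered 1 with lists of equal length and 7 to 28 without 1 library, and those in controls only 0 to 4.

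With the replicate number as a block, 0 H3K27ac bins of the windows were called lower. The limma adjusted p of the bins at Batf and Klrg1 was then 0.0586, 0.0519 and 0.0737. The block changed no other call.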
